A study of Mus musculus with 17 samples.

Results

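The results describe 1 comparison across all genes: type 1 conventional dendritic cells (cDC1s) cultured for 6 h with debris of apoptotic tumor cells (BimS) against cDC1s cultured for 6 h with medium of live tumor cells (WT). It holds 6 of the 17 samples of the study, 3 with each medium, chosen by their labels, and 19513 genes that passed the filter on low counts. The cells came from spleens of 8-week-old C57BL/6JRj mice that carried FLT3L-secreting B16 tumors, which expand dendritic cells, and spleens of several mice were pooled in an experiment. CD11c+ spleen cells received the uncentrifuged medium of an equal number of TC-1 cells together with GM-CSF, and cDC1s were then sorted as XCR1+ CD8α+ SIRPα- cells. TC-1 cells derive from lung epithelium of C57BL/6 mice and form tumors. The TC-1-iBimS cells, a clonal line, expressed the pro-apoptotic protein BimS under the inducer cumate. WT TC-1 cells were given cumate as well, so both groups share the inducer, the parental tumor cell line, GM-CSF and the B16-FLT3L tumor of the host. The contents of the BimS medium included dead cells, debris and soluble material, and the parts of these in a change cannot be told apart. The TC-1-iBimS clone also differs from WT TC-1 cells by its lentiviral vectors, which carry the cumate repressor, puromycin resistance and zsGreen, and by its selection as a single clone, and neither can be told apart from the mode of death. The other groups used for comparison were cDC1s with debris of necroptotic cells (RIPK3, 3 samples), from a clonal TC-1-iRIPK3 line, and cDC2s with WT medium or BimS debris (3 samples each).

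cDC1s are the dendritic cells that take up dying cells and present their antigens to CD8+ T cells. Apoptotic cells carry proteins, lipids, heme and iron, which a phagocyte has to break down, store or export. Heme releases the repressor BACH1 from DNA, so that NRF2 with small MAF proteins can bind the same elements, and cholesterol is sensed by SREBP2, which raises its synthesis and uptake, and by LXR, which raises its export. Dendritic cells that mature raise costimulatory molecules and the chemokine receptor CCR7, with or without the inflammatory and interferon genes that microbial signals add.

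At an adjusted p under 0.05, 2576 genes (13.2%) differed between BimS and WT, of which 1426 (7.31%) were higher and 1150 (5.89%) lower with BimS debris (edgeR's quasi-likelihood test, Benjamini-Hochberg adjusted). With limma on the deposited normalized log2 values 1036 were higher and 1806 lower, so that 36.5% of the called genes were higher in place of 55.4%. With the replicate number as a block edgeR called 17.9% of genes. The larger changes were mostly rises. Among the 7907 genes that averaged at least 3 on the log2 CPM scale, 92 rose and 6 fell by more than 1 on the log2 scale, and the median absolute log2 fold change over these genes was 0.11. CPM are read counts scaled to a common library size after TMM normalization, and log2 fold changes are BimS less WT throughout. A principal component analysis of the 6 libraries over the 500 genes that varied most placed 94.1% of the variance on component 1, where the WT libraries lay between -10.4 and -9.45 and the BimS libraries between 9.55 and 10.3. On component 2, with 3.24% of the variance, replicate 2 of both media lay apart from the other libraries, at -2.42 with WT and -2.78 with BimS, where the other 4 lay between 0.867 and 1.55. Totals ranged from 18986002 to 21645289 counts on genes, and the share of mitochondrial transcripts was 0.821 to 0.908% with WT and 0.940 to 0.950% with BimS. Its part in the results was not tested. In bulk samples, fewer cells of a type and less RNA per cell cannot be told apart.

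**Figure D1:**
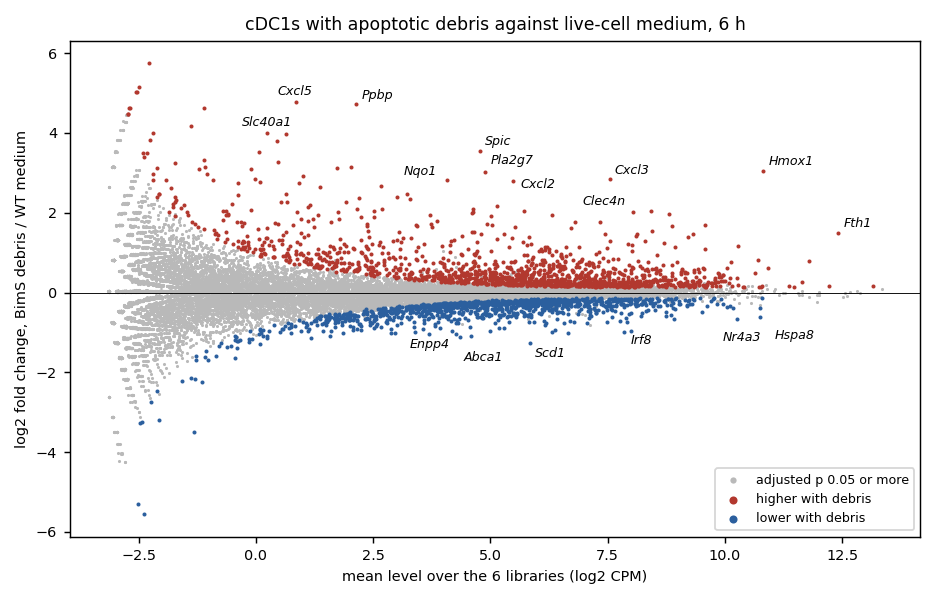
Each point is 1 of the 19513 genes tested, with its mean level over the 6 libraries (log2 CPM) on the x axis and its log2 fold change between BimS debris and WT medium on the y axis. Red points (1426) were higher and blue points (1150) lower at an adjusted p under 0.05. Among genes with a mean of 3 or more, the rises reach 3.56 (Spic) and the falls -1.26 (Scd1).

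The sorted cells carried the defining transcripts of cDC1s with both media. Clec9a, the receptor for exposed actin of dead cells, was at 231, 241 and 254 CPM with WT medium and 288, 280.5 and 298 CPM with BimS debris (log2 fold change 0.26, SE 0.0486, adjusted p = 0.000169). Xcr1, the chemokine receptor used in the sort, was at 148, 150.2 and 160.4 CPM with WT medium and 203, 206 and 216 CPM with BimS debris (log2 fold change 0.44, SE 0.0515, adjusted p = 2.66e-08). For both genes every BimS library was above every WT library, a separation that 29.5% of all genes tested showed in 1 direction or the other. Later statements that groups did not overlap stand beside this share. Irf8, the transcription factor that maintains cDC1 identity, was at 316, 280.4 and 335 CPM with WT medium and 178, 182 and 194 CPM with BimS debris (log2 fold change -0.75, SE 0.0564, adjusted p = 3.78e-12). Its levels fell without overlap. Of the 18 cDC1 markers listed, 5 rose, 7 fell and 6 were not called, beside 7.31% of all genes higher and 5.89% lower. Their median log2 fold change was -0.03. Besides Irf8, the 7 that fell were Snx22, Gcsam, Itgae (-0.45), Ppt1, Flt3 (-0.33), the receptor for the growth factor that sustains dendritic cells, and Wdfy4, which is needed for cross-presentation. Wdfy4, at -0.18, lost its call without any 1 of WT replicate 1, WT replicate 3, BimS replicate 1 or BimS replicate 2. Without WT replicate 1, WT replicate 2 or BimS replicate 3, 3 in place of 5 markers rose.

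Heme and iron genes held several of the largest rises. Counts of list members here and in what follows stand beside 7.31% higher and 5.89% lower over all genes. The 15 largest rises and the 15 largest falls named here and in what follows were chosen among called genes whose groups did not overlap, so for them the gap between the groups is a description. Of 19 genes tested, 10 rose, 1 fell and 8 were not called, with a median of 0.34 against 0.00 over all genes. Hmox1 (ENSMUSG00000005413, chromosome 8 from 75820241 to 75827217, forward strand, GRCm39), which encodes the heme-degrading enzyme heme oxygenase 1, was measured at 571, 687 and 607 CPM in the WT libraries and at 5250.3, 5057 and 5174 CPM in the BimS libraries. The 3 values of each group lay close together, and the groups were several times apart (log2 fold change 3.05, SE 0.055, adjusted p = 7.4e-27). Spic (ENSMUSG00000004359, chromosome 10 from 88510629 to 88520960, reverse strand), a transcription factor known from red pulp macrophages that recycle iron, was at 6.8, 7.56 and 9.24 CPM with WT medium and 107, 77.3 and 95.2 CPM with BimS debris. The BimS libraries spread more than the WT libraries, and all of them were above (log2 fold change 3.56, SE 0.185, adjusted p = 9.06e-06). Slc40a1, the iron exporter ferroportin, was near the limit of detection with WT, at 0.35, 0.204 and 0.18 CPM, and at 4.6, 2.96 and 4.45 CPM with BimS (log2 fold change 4.0, SE 0.325, adjusted p = 5.16e-12).

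Both ferritin chains and several transporters rose. Fth1, the ferritin heavy chain, rose from 3196 ± 151 to 9029 ± 739 CPM (SD, n = 3), and Ftl1, the light chain, from 515 ± 0.874 to 1098 ± 77.7 CPM. On the log2 scale the rises were 1.5 (adjusted p = 1.76e-08) and 1.09 (adjusted p = 4.74e-19). Slc48a1, which moves heme out of the lysosome, was at 59.6, 60.4 and 58.4 CPM with WT medium and 204, 200.4 and 205 CPM with BimS debris (log2 fold change 1.77, SE 0.0529, adjusted p = 4.83e-24). The 3 WT values and the 3 BimS values were each nearly equal. Slc11a1, the phagosomal metal transporter, rose by 0.96 (adjusted p = 2.54e-13), the heme exporter Flvcr1 by 0.47 (adjusted p = 0.000266) and Bach1, the heme-sensing repressor, by 0.7 (adjusted p = 1.37e-10). The transporter gene Flvcr2 (-0.35), the transferrin receptor gene Tfrc (-0.05) and the reductase gene Steap3 (-0.48) were not called. Genes of cellular iron sensing were not called either: Ireb2 was at 97.2, 98.5 and 104 CPM with WT medium and 97.2, 105 and 96.3 CPM with BimS debris, and Aco1 and Ncoa4 had log2 fold changes of 0.0 and 0.06. The receptor for hemopexin-bound heme, Lrp1, fell by 0.25 (adjusted p = 0.00452). Cd163, the hemoglobin receptor of macrophages, was under 1 CPM in both groups and was not called.

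Most NRF2 targets and genes of glutathione rose, 22 of 29 tested, with 2 lower, 5 not called and a median of 1.27. Nqo1 (ENSMUSG00000003849, chromosome 8 from 108113835 to 108129934, reverse strand), a quinone reductase and a standard NRF2 target, was at 6.55, 6.13 and 5.9 CPM with WT medium and 49.6, 37 and 44.3 CPM with BimS debris (log2 fold change 2.82, SE 0.121, adjusted p = 6.75e-12). The lowest BimS library was several times above the highest WT library. Gclm, the regulatory subunit of the enzyme that starts glutathione synthesis, was at 209, 235 and 231 CPM with WT medium and 911, 846 and 891 CPM with BimS debris (log2 fold change 1.97, SE 0.0497, adjusted p = 3.25e-26). Its catalytic partner Gclc rose by 1.42 (adjusted p = 7.19e-21), the cystine importer Slc7a11 by 1.4 (adjusted p = 5.77e-10) and glutathione reductase, Gsr, by 1.95 (adjusted p = 7.88e-24). Together these cover import of the precursor, synthesis and recycling of glutathione.

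Thiol and peroxide enzymes of the list also rose. Srxn1, which repairs oxidized peroxiredoxins, was at 419, 434 and 404 CPM with WT medium and 1380.2, 1314 and 1342 CPM with BimS debris (log2 fold change 1.68, SE 0.0471, adjusted p = 7.2e-25). Prdx1, a peroxiredoxin, was at 166, 163 and 175 CPM with WT medium and 754, 608 and 721 CPM with BimS debris (log2 fold change 2.05, SE 0.0906, adjusted p = 4.42e-08). Catalase, Cat, rose by 1.66 (adjusted p = 2.99e-19), and Txnrd1, thioredoxin reductase, from 1256 ± 49.3 to 2195 ± 20.2 CPM. Blvrb, a biliverdin reductase, was at 24.3, 27.4 and 25.1 CPM with WT medium and 114, 94.4 and 109 CPM with BimS debris (log2 fold change 2.05, SE 0.0715, adjusted p = 2.99e-19). Osgin1, an oxidative stress gene, was at 3.7, 4.08 and 3.74 CPM with WT medium and 22.2, 20.3 and 21.6 CPM with BimS debris (log2 fold change 2.48, SE 0.104, adjusted p = 7.55e-20). The pentose phosphate enzymes G6pdx and Pgd, which make NADPH, rose by 1.04 (adjusted p = 1.29e-18) and 1.53 (adjusted p = 1.33e-23), and the glutathione conjugate exporter Abcc1 by 1.47 (adjusted p = 1.14e-22). The transcript of NRF2 itself, Nfe2l2, was at 479.9, 489 and 478 CPM with WT medium and 487, 471 and 473 CPM with BimS debris (adjusted p = 0.896), and that of its partner Mafg rose from 169 ± 7.52 to 389 ± 12.5 CPM (1.2). Gpx4, which reduces lipid peroxides, was not called (0.01). The 2 members that fell, Trib3 (-0.49) and Sesn2 (-0.17), are also targets of the stress factor ATF4. Without WT replicate 1, WT replicate 2, BimS replicate 1 or BimS replicate 3, 1 member fell in place of 2.

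To show the elements named here, the promoters of RefSeq (GRCm38.p6, 250 bases before to 50 after each start) were searched on both strands, and 11507 of the tested symbols had one. The letters TGAC, then 3 bases of any kind and GCA, a form of the antioxidant response element, were in 3.36% of these promoters, in 4.96% of the 1068 promoters of genes called higher and in 2.24% of the 894 of genes called lower. Of 24 promoters of the NRF2 list, 2 held it. Txnrd1 is shown because it had the smallest p among called NRF2 or heme genes with a match before the start. The sequence reads in the direction of the gene, with the match on the opposite strand in capitals, and its coordinates are those of GRCm38.p6.
Txnrd1, chr10:82859088-82859147, forward strand: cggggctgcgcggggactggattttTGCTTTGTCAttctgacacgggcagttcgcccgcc

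**Figure D2:**
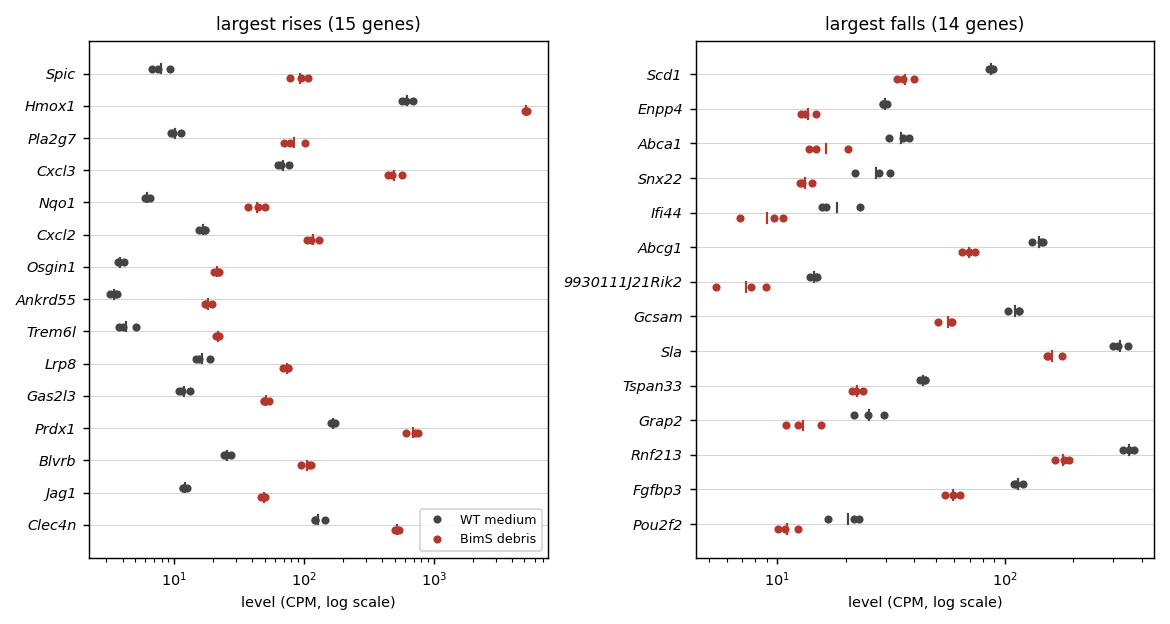
The level in each library (CPM, log scale, x axis) is drawn for the 15 genes with the largest rises and 14 of the 15 with the largest falls, with WT medium in grey, BimS debris in red and a bar at the mean of 3 libraries. These genes were chosen for not overlapping, so the gap between the colors is part of the choice, and the spread within a color is the spread between libraries. Spic, Pla2g7 and Ifi44 spread more than Hmox1 or Clec4n.

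Of 19 chemokine genes tested, 5 rose, none fell and 14 were not called. The 5 were all CXC chemokines, while among CC chemokines Ccl3 differed by 0.96 (adjusted p = 0.051) and Ccl4 by 0.43 (adjusted p = 0.0866) on the log2 scale, neither of them called. With the replicate number as a block both passed, Ccl3 with an adjusted p of 0.00847 and Ccl4 with one of 0.0255. Without WT replicate 3 or BimS replicate 2, 1 fell. Cxcl3 (ENSMUSG00000029379, chromosome 5 from 90933962 to 90937459, forward strand), a neutrophil attractant that binds CXCR2, was at 77.2, 66.6 and 62.8 CPM with WT medium and 565, 443 and 473 CPM with BimS debris (log2 fold change 2.84, SE 0.119, adjusted p = 1.02e-06). Cxcl2, of the same group, was at 17.2, 17.2 and 15.6 CPM with WT medium and 131, 114 and 106 CPM with BimS debris (log2 fold change 2.81, SE 0.0868, adjusted p = 6.18e-15). Ppbp and Cxcl5 had fewer counts. Ppbp was at 0.9, 0.562 and 0.947 CPM with WT medium and 24.2, 19.4 and 21.1 CPM with BimS debris (log2 fold change 4.73, SE 0.172, adjusted p = 1.03e-19), and Cxcl5 at 0.3, 0.306 and 0.27 CPM with WT medium and 10.1, 7.23 and 7.24 CPM with BimS debris (log2 fold change 4.78, SE 0.262, adjusted p = 4.41e-16). In all 4 genes the lowest BimS library was far above the highest WT library. Pf4, which is made together with Ppbp in platelets, was at 0.4, 0.357 and 0.406 CPM with WT medium and 3.63, 3.71 and 4.14 CPM with BimS debris (log2 fold change 3.28, SE 0.257, adjusted p = 2.3e-12). Of the other platelet and megakaryocyte markers tested, Itga2b, Itgb3, Clec1b, Vwf, Gp5 and Tubb1, none was called, and Vwf was at 11.5, 10.6 and 11.5 CPM with WT medium and 11.6, 12.1 and 12.9 CPM with BimS debris. The list sum of 23.04 to 24.56 CPM with WT and 46.6 to 49.3 CPM with BimS moved with Ppbp and Pf4.

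Chemokines for T cells and monocytes did not pass the test. Cxcl9 was at 60.1, 60.1 and 61.4 CPM with WT medium and 49.3, 56.8 and 54.5 CPM with BimS debris (adjusted p = 0.0683), Ccl22 at 187, 121 and 165 CPM with WT medium and 132, 81.2 and 108 CPM with BimS debris (adjusted p = 0.273) and Cxcl16 at 816, 768 and 835 CPM with WT medium and 846, 742 and 789 CPM with BimS debris (adjusted p = 0.851). For Ccl22 the libraries of the same replicate number moved together, and in a fit with the replicate number as a block its log2 fold change of -0.56 had an adjusted p of 1.2e-21. With the block, Cxcl9 passed too (adjusted p = 0.00901), and 3 chemokines fell and 7 rose, where 8.51% of all genes fell and 9.36% rose. Of 19 cytokines and growth factors, Hbegf (1.32, adjusted p = 0.000649) and Areg (0.73, adjusted p = 0.0452), ligands of the EGF receptor, rose, and Il6 and Vegfa fell. Areg lost its call without WT replicate 1 or 3 or BimS replicate 1 or 2, with adjusted p-values of 0.135 to 0.291. Il6 was at 57.2, 65 and 60.5 CPM with WT medium and 43.6, 46.3 and 39.8 CPM with BimS debris (log2 fold change -0.49, SE 0.0666, adjusted p = 5.81e-07). Il1b was at 3643, 3706 and 3593 CPM with WT medium and 3477, 3409.5 and 3288 CPM with BimS debris and was not called (adjusted p = 0.114), with 0.0177 under the block. For Il12b the log2 fold change was -0.4 (adjusted p = 0.464), with an adjusted p of 0.0135 under the block.

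Early response factors changed in both directions. Of 34 tested, 15 rose and 5 fell. Egr2 and Egr3, zinc finger factors induced by receptor signals, rose from 2.09 ± 0.0586 to 8.9 ± 0.823 CPM and from 2.38 ± 0.0491 to 8.92 ± 1.68 CPM, which is 2.09 (adjusted p = 1.23e-13) and 1.9 (adjusted p = 0.00137) on the log2 scale. Fosl1, an AP-1 subunit, was at 0.9, 0.562 and 0.541 CPM with WT medium and 4.5, 4.5 and 4.55 CPM with BimS debris (log2 fold change 2.75, SE 0.219, adjusted p = 3.13e-12). These rises were from low levels, and the groups did not overlap. Atf3, a stress-induced factor, was at 71.8, 74.7 and 71.4 CPM with WT medium and 107, 108 and 108 CPM with BimS debris (log2 fold change 0.57, SE 0.0546, adjusted p = 3.12e-10). In the other direction Nr4a3, an orphan nuclear receptor linked to dendritic cell migration, was at 1624, 1515 and 1446 CPM with WT medium and 996, 955 and 932 CPM with BimS debris (log2 fold change -0.67, SE 0.0484, adjusted p = 2.85e-13). Fos (0.02), Junb (-0.09) and Klf6 (-0.09) were not called.

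Other leading rises are of several functions. Pla2g7, which encodes a secreted phospholipase that cleaves oxidized phospholipids, was at 11.2, 9.85 and 9.51 CPM with WT medium and 102, 70.5 and 77.6 CPM with BimS debris (log2 fold change 3.03, SE 0.222, adjusted p = 0.000146). The BimS libraries differed among themselves and were all above WT. Clec4n, which encodes the fungal pattern receptor Dectin-2, was at 121, 144 and 121 CPM with WT medium and 536, 522 and 506 CPM with BimS debris (log2 fold change 2.02, SE 0.0561, adjusted p = 7.88e-24). Lrp8, a lipoprotein receptor, was at 14.6, 18.9 and 15.4 CPM with WT medium and 75.1, 69.2 and 75.8 CPM with BimS debris (log2 fold change 2.17, SE 0.0839, adjusted p = 2.48e-16). Jag1, a Notch ligand, was at 11.7, 12.6 and 11.7 CPM with WT medium and 50.4, 46.8 and 49.3 CPM with BimS debris (log2 fold change 2.02, SE 0.0736, adjusted p = 9.36e-22). Trem6l, of the TREM receptor family, rose from 4.27 ± 0.691 to 21.6 ± 0.5 CPM, Ankrd55 from 3.44 ± 0.218 to 18.1 ± 1.28 CPM and Gas2l3 from 11.8 ± 1.16 to 50.7 ± 2.36 CPM. Their log2 fold changes were 2.34, 2.39 and 2.09.

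A part of the genes of cholesterol synthesis and uptake rose. Of 29 tested, 10 rose, 1 fell and 18 were not called, with a median of 0.19. Hmgcs1, an early enzyme of cholesterol synthesis, was at 67.2, 61.4 and 57.4 CPM with WT medium and 104, 86.1 and 82.8 CPM with BimS debris, and Msmo1, of the later steps, at 27.9, 27.5 and 27 CPM with WT medium and 42.1, 40.9 and 34.5 CPM with BimS debris. In both the groups did not overlap. Sqle, which oxidizes squalene, rose by 0.99 (adjusted p = 0.000366), Hmgcs1 by 0.55 (adjusted p = 0.00783), Msmo1 by 0.51 (adjusted p = 1.65e-06) and the factor Srebf2 by 0.29 (adjusted p = 0.000106). Npc1, which exports cholesterol from lysosomes, rose by 0.6 (adjusted p = 8.76e-10), whereas its soluble partner Npc2 fell by 0.28 (adjusted p = 0.000153). Steps such as Fdps (0.03), Pmvk (-0.06) and Mvd (-0.15) were not called. The sterol regulatory letters TCACNCCAC were in 1.4% of the promoters, in 2.43% of those of genes called higher and in 1.45% of those of genes called lower. Among the 20 promoters of this list, 1 held them, that of Hmgcs1. It is printed in the direction of the gene from GRCm38.p6, with the match in capitals.
Hmgcs1, chr13:119690189-119690248, forward strand: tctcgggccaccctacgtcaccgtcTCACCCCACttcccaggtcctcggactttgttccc

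Of 18 genes listed for LXR targets and cholesterol efflux, 4 rose and 4 fell, beside 7.31% and 5.89% of all genes. Besides LXR targets the list holds the receptor genes Nr1h2 and Nr1h3 and the cholesterol ester genes Soat1 and Nceh1. Soat1 and Nceh1 were among the 4 rises. Scd1 (ENSMUSG00000037071, chromosome 19 from 44382894 to 44399154, reverse strand), which desaturates fatty acids, was at 89, 88.1 and 85.1 CPM with WT medium and 33.4, 39.7 and 35.8 CPM with BimS debris (log2 fold change -1.26, SE 0.063, adjusted p = 9.26e-18). Abcg1 and Abca1, which export cholesterol, were at 148, 132 and 144 CPM with WT medium and 73.8, 64.6 and 69.7 CPM with BimS debris and at 35.8, 37.9 and 30.9 CPM with WT medium and 14.8, 20.5 and 13.8 CPM with BimS debris. On the log2 scale Abcg1 changed by -1.03 (adjusted p = 2.92e-16) and Abca1 by -1.08 (adjusted p = 0.00285). In these 3 genes every BimS library was below every WT library. Scd2, a second desaturase, fell by 0.69 (adjusted p = 3.74e-08). Mylip, a ubiquitin ligase, was at 71.7, 59.1 and 64 CPM with WT medium and 137, 109.6 and 131 CPM with BimS debris (log2 fold change 0.95, SE 0.0998, adjusted p = 5.68e-05). Soat1, which esterifies cholesterol for storage, was at 66, 65.1 and 66.5 CPM with WT medium and 120.3, 123 and 127 CPM with BimS debris (log2 fold change 0.91, SE 0.0539, adjusted p = 1.34e-15). Nceh1 (0.74), an ester hydrolase, and Arl4c (0.27) were the others that rose. The receptor gene Nr1h2 (0.04) and the lipogenic genes Srebf1 (0.12) and Fasn (0.15) were not called, and with the replicate block Fasn had an adjusted p of 0.0431.

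Lysosomal genes were mixed, with 9 of 35 higher and 7 lower, where 7.31% of all genes were higher and 5.89% lower. Lipa, the lysosomal lipase that frees cholesterol from lipoprotein esters, was at 82.4, 88.6 and 90.1 CPM with WT medium and 311, 269 and 307 CPM with BimS debris (log2 fold change 1.76, SE 0.0571, adjusted p = 1.57e-22). Its change was the largest of the list. Mitf, a factor for lysosomal genes, rose from 7.21 ± 0.515 to 15.9 ± 0.773 CPM (1.14, adjusted p = 1.02e-10), and the proton pump subunits Atp6v1a and Atp6v1h rose by 0.51 (adjusted p = 2.82e-10) and 0.41 (adjusted p = 3.91e-07). The acid ceramidase gene Asah1 fell by 0.38 (adjusted p = 5.07e-06) and Tfeb, related to Mitf, by 0.33 (adjusted p = 0.0341). Without WT replicate 3, 4 in place of 7 lysosomal genes fell. Ctss, a cathepsin of antigen presentation, was at 399, 388 and 406 CPM with WT medium and 381, 388 and 389 CPM with BimS debris and was not called.

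Of 26 genes of dying-cell uptake tested, 7 rose and 3 fell, beside 7.31% higher and 5.89% lower over all genes. The list holds receptors, bridging molecules and intracellular genes, and Rac1 (0.18), a GTPase gene, was among the rises. Without WT replicate 1 the number that rose was 3. Cd36, a scavenger receptor, was at 1266, 1428 and 1282 CPM with WT medium and 1841, 1924 and 1804 CPM with BimS debris (log2 fold change 0.49, SE 0.0482, adjusted p = 7.48e-10), and Cd300a, an inhibitory receptor for phosphatidylserine, at 37.3, 39.4 and 40.6 CPM with WT medium and 76.4, 76.9 and 71.4 CPM with BimS debris (log2 fold change 0.94, SE 0.0585, adjusted p = 5.15e-15). Timd4, another receptor for phosphatidylserine, was at 58.8, 55.8 and 55 CPM with WT medium and 33.5, 42.1 and 35.9 CPM with BimS debris (log2 fold change -0.6, SE 0.0777, adjusted p = 1.18e-06), and Havcr2 fell by 0.33 (adjusted p = 0.0221). So members that bind the same lipid changed in opposite directions. Ly75, the receptor DEC-205, was at 1109, 1081 and 1045 CPM with WT medium and 1142, 1134 and 1069 CPM with BimS debris and was not called. Mertk did not pass the filter on low counts, and the log2 fold change of Axl was -0.35 (adjusted p = 0.362).

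Semaphorins with their plexin and neuropilin receptors, which guide cell movement and contact, had 7 rises and 3 falls of 17 tested, with a median of 0.60. Plxna1 was at 12.6, 13.9 and 16.2 CPM with WT medium and 39.8, 39.4 and 43.8 CPM with BimS debris (log2 fold change 1.52, SE 0.0895, adjusted p = 2.1e-14). The neuropilins Nrp2 and Nrp1 rose by 1.21 (adjusted p = 3.41e-06) and 0.72 (adjusted p = 5.12e-05), and the ligands Sema7a, Sema4f and Sema4d by 0.67, 0.65 and 0.71. Plxnb2 was at 77.1, 76.1 and 78.8 CPM with WT medium and 46.4, 45.8 and 46.2 CPM with BimS debris (log2 fold change -0.75, SE 0.0597, adjusted p = 3.52e-12), and Sema4a and Sema6d fell by 0.44 and 0.44. Of the TGF-beta list, 8 of 25 rose and 1 fell. Acvrl1, a type I receptor, was at 135, 138 and 136 CPM with WT medium and 239, 228 and 238 CPM with BimS debris (log2 fold change 0.79, SE 0.0472, adjusted p = 1.89e-15). Lrrc32, which holds latent TGF-beta at the cell surface, rose by 0.6 (adjusted p = 2.15e-10) and Tgfbi, an extracellular target, by 0.59 (adjusted p = 1.16e-11). Itgb8, a subunit of the integrin that activates latent TGF-beta, rose from 0.36 ± 0.274 to 0.958 ± 0.307 CPM (1.35, adjusted p = 0.0261) with overlapping groups, and Skil, an inhibitor of SMADs, fell by 0.33 (adjusted p = 2.09e-06). The cytokine gene Tgfb1 and the receptor gene Tgfbr2 were not called (-0.06 and -0.07).

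**Figure D3:**
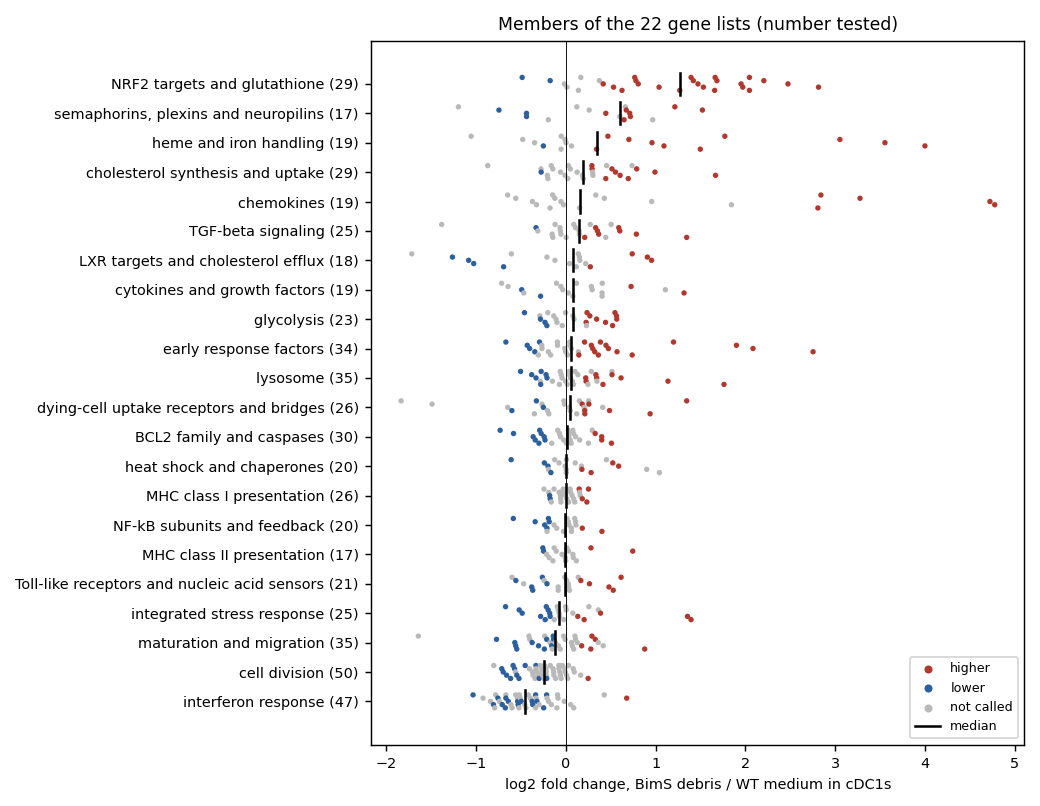
Each point is a gene of 1 of 22 lists (y axis, with the number tested), placed at its log2 fold change between BimS debris and WT medium (x axis), red where called higher, blue where called lower and grey where not called, with a black bar at the list's median. The medians run from 1.27 for NRF2 targets to -0.46 for the interferon response, and most lists hold both red and blue points. The vertical spread within a list has no meaning.

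Of 35 maturation genes, 5 rose, 11 fell and 19 were not called, with a median of -0.12, beside 7.31% of all genes higher and 5.89% lower. Ccr7, the receptor that takes dendritic cells to lymph nodes, was at 603, 535 and 518 CPM with WT medium and 433, 338 and 353 CPM with BimS debris (log2 fold change -0.56, SE 0.113, adjusted p = 0.0153), and lost its call without BimS replicate 3 (adjusted p = 0.0616). Cd83, a maturation marker, was at 1936, 1966 and 1868 CPM with WT medium and 1553, 1489 and 1404 CPM with BimS debris (log2 fold change -0.38, SE 0.046, adjusted p = 7.48e-08). The costimulatory genes changed by -0.3 (adjusted p = 0.00012) for Cd80, -0.21 (adjusted p = 0.0103) for Cd40 and -0.14 (adjusted p = 0.0362) for Cd86. Cd40 and Cd86 each lost the call without WT replicate 1, WT replicate 3 or BimS replicate 2, and Cd86 also without WT replicate 2 or BimS replicate 3, with adjusted p-values of 0.0645 to 0.187. Cd274, the gene of the inhibitory ligand PD-L1, was at 913, 911 and 867 CPM with WT medium and 1091, 1093 and 1078 CPM with BimS debris (log2 fold change 0.28, SE 0.0504, adjusted p = 0.000101). Without overlap it was higher with BimS, while Cd80 and Cd83 were lower. Icosl, a costimulatory ligand, fell from 56.4 ± 0.267 to 38 ± 1.98 CPM (-0.57). Leaving out 1 library gave 3 to 5 rises, with 3 without WT replicate 1, BimS replicate 1 or BimS replicate 3. It gave as few as 5 falls without WT replicate 1, 6 without WT replicate 3 or BimS replicate 3 and 7 without BimS replicate 2.

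The called genes of MHC class I presentation changed little in size. Of 26 MHC class I genes, 4 rose and 2 fell, beside 7.31% higher and 5.89% lower over all genes, with all 6 log2 fold changes between -0.18 and 0.25, and B2m was at 1001, 948 and 1027 CPM with WT medium and 1068, 1015 and 1106 CPM with BimS debris and not called (adjusted p = 0.231, or 0.0416 with the replicate block). Without 1 library, as few as 1 rose (without BimS replicate 1), or 2 (without WT replicate 2 or BimS replicate 3). The 2 that fell were Tap1 and Wdfy4. The number of falls was 0 without WT replicate 1, WT replicate 3 or BimS replicate 2, 1 without BimS replicate 3, and 3 without WT replicate 2 or BimS replicate 1, and without the latter Wdfy4 was not among them. Of 17 MHC class II genes, 2 rose and 2 fell. H2-Ab1 was at 6709, 7551 and 7023 CPM with WT medium and 6896, 7589 and 7228 CPM with BimS debris and Cd74 at 9717, 10259 and 9981 CPM with WT medium and 10306, 10804 and 10602 CPM with BimS debris, and neither was called. The master regulator Ciita rose by 0.28 (adjusted p = 0.000196) and Marchf1, a ligase that removes MHC class II from the surface, by 0.74 (adjusted p = 2.54e-07). Rfxap and H2-DMa fell by 0.26 and 0.25. Toll-like receptors and nucleic acid sensors had 5 rises and 5 falls of 21, among them the DNA sensing genes Sting1 (-0.56, adjusted p = 6.87e-09) and Cgas (-0.37, adjusted p = 0.00836), which fell. The number of rises in that list was 1 without WT replicate 2 or BimS replicate 3, 2 without WT replicate 1 and 3 without BimS replicate 1. Its falls were 3 without WT replicate 3 or BimS replicate 2.

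Signaling, stress and survival lists held changes in both directions. Over all genes 7.31% were higher and 5.89% lower, and the counts of each list stand beside these shares. NF-kB genes had 2 rises and 6 falls of 20. The rises were 1 without WT replicate 2, WT replicate 3, BimS replicate 2 or BimS replicate 3. Nfkb1 was at 1228, 1254 and 1194 CPM with WT medium and 981, 987 and 931 CPM with BimS debris (log2 fold change -0.34, SE 0.0448, adjusted p = 3.01e-07), Tnip3 fell by 0.59, and the falls were 3 without WT replicate 1 and 2 without BimS replicate 3. In the integrated stress response 5 of 25 rose and 9 fell. The amino acid stress factor Atf4 and its targets Chac1 and Trib3 were among the falls (-0.18, -0.52 and -0.49), and Cebpb rose from 27.2 ± 3.38 to 69.6 ± 14.3 CPM (1.36, adjusted p = 0.00172). Heat shock genes had 4 rises and 4 falls of 20. With the replicate number as a block, where 9.36% of all genes rose, edgeR also called Hspa1b, Hspa1a and Dnajb1 higher. Their log2 fold changes were 1.04 (adjusted p = 1.26e-23), 0.905 (adjusted p = 2.87e-18) and 0.173 (adjusted p = 0.0123). Hspa8, a constitutive chaperone, was at 2139, 1984 and 2189 CPM with WT medium and 1390.5, 1337 and 1406 CPM with BimS debris (log2 fold change -0.61, SE 0.0504, adjusted p = 2.1e-11), and Hsph1 rose by 0.59 (adjusted p = 4.21e-10). The heat shock falls were 2 without WT replicate 1 and 1 without WT replicate 3. Glycolysis had 9 rises and 4 falls of 23, with Aldoa, Pkm and Hk2 higher (0.57, 0.52 and 0.56) and Pfkl and Pfkfb3 lower (-0.46 and -0.28). In the BCL2 family and caspases 4 of 30 rose and 9 fell. The falls included both the pro-apoptotic Bbc3 (-0.58, adjusted p = 5.43e-08) and Pmaip1 (-0.36, adjusted p = 5.04e-07) and the anti-apoptotic Mcl1 (-0.28, adjusted p = 1.04e-05), and the rises included Bax (0.4), Casp1 (0.33) and Nlrp1b (0.51). Bcl2l11, the mouse gene of the protein that the tumor cells overexpressed, was at 1349, 1286 and 1337 CPM with WT medium and 1360.2, 1318 and 1375 CPM with BimS debris, and was not called.

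A part of the interferon genes fell. Of 47 tested, 16 fell, 1 rose and 30 were not called, with a median of -0.46. Trim30a, an interferon-induced regulator, was at 281, 254 and 287 CPM with WT medium and 173, 150.1 and 179.6 CPM with BimS debris (log2 fold change -0.71, SE 0.0758, adjusted p = 6.4e-06). Rnf213, a ubiquitin ligase active against microbes that is not on the list but among the 15 largest falls, was at 349.9, 332 and 368 CPM with WT medium and 183, 166 and 192 CPM with BimS debris (log2 fold change -0.96, SE 0.123, adjusted p = 0.00176). Ifi44 was at 15.7, 16.3 and 23.1 CPM with WT medium and 9.71, 6.85 and 10.6 CPM with BimS debris (log2 fold change -1.03, SE 0.224, adjusted p = 0.0172) and lost its call without BimS replicate 1 (adjusted p = 0.0732). In these 3 genes every BimS library was below every WT library. Irf9 and Stat2, which carry the type I interferon signal, fell by 0.37 and 0.32 (adjusted p = 4.72e-06 and 0.00183). Irf7 was at 96, 78.1 and 104 CPM with WT medium and 69.1, 48 and 67 CPM with BimS debris and was not called (adjusted p = 0.149). Within each medium, replicate 2 was the lowest for Irf7. With the replicate number as a block its log2 fold change of -0.60 had an adjusted p of 1.16e-20, and in the list 28 genes fell, where 8.51% of all genes did. Without WT replicate 3, without the block, 10 fell. Oasl1, which represses translation of Irf7, went the other way, from 367 ± 35 to 587 ± 50.6 CPM (0.68, adjusted p = 0.0107), and no gene of the list rose without WT replicate 2 or BimS replicate 1. Ifi204 and Oasl2 were not called (0.43 and 0.09), and with the block Ifi204 had an adjusted p of 8.46e-13.

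The letters GAAA, then 2 bases of any kind and GAAA again, the core of the interferon-stimulated response element, were searched on both strands. They were found in 21 of 34 promoters of the interferon list (61.8%), in 8 of the 13 that belong to called genes (61.5%), and in 3.95% of all 11507. Among genes called lower 6.26% held them and among genes called higher 3.37%. These 5 windows belong to called members with small p-values whose match lies before the start. They are printed from GRCm38.p6 in the direction of the gene, and the capitals mark the element or its reverse complement.
Slfn8, chr11:83020824-83020883, reverse strand: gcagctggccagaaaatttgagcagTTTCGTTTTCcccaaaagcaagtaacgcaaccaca
Trim30a, chr7:104465195-104465254, reverse strand: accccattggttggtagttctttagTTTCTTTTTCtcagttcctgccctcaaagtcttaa
Igtp, chr11:58199496-58199555, forward strand: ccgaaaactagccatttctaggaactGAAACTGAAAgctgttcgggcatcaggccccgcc
Stat2, chr10:128270251-128270310, forward strand: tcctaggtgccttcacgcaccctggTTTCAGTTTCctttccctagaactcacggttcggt
Oas3, chr5:120777700-120777759, reverse strand: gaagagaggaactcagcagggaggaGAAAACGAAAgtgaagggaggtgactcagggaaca
Beside these sequences stand the levels: Slfn8, of the Schlafen family, was at 31.3, 29.1 and 32.2 CPM with WT medium and 22.4, 20.2 and 21.3 CPM with BimS debris, Igtp, an immunity-related GTPase, was at 7.35, 6.84 and 7.08 CPM with WT medium and 4.75, 3.94 and 4.71 CPM with BimS debris, Stat2 at 305, 289 and 332 CPM with WT medium and 256, 227 and 257 CPM with BimS debris, and Oas3, a sensor of double-stranded RNA, at 20.3, 18.8 and 23.7 CPM with WT medium and 14.7, 12.6 and 17.4 CPM with BimS debris. All 5 genes were lower with BimS in all 3 libraries than with WT in any. Such a separation, in 1 direction or the other, was seen in 29.5% of all genes, and these 5 were picked among called genes. Genes of this list with near-identical copies may share reads.

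**Figure D4:**
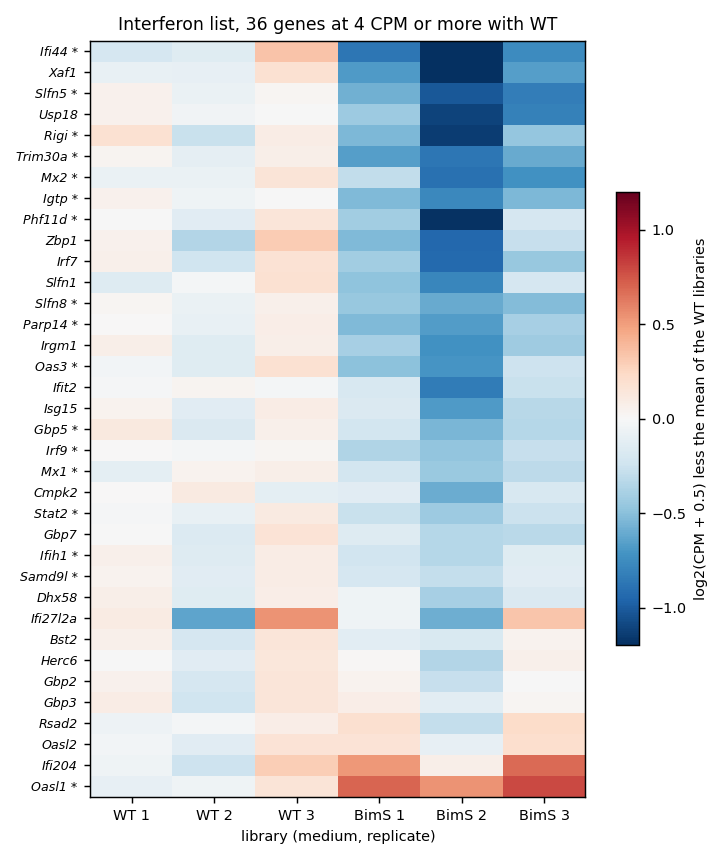
Each row is 1 of 36 genes of the interferon list at 4 CPM or more with WT medium and each column a library, colored by log2(CPM + 0.5) less the mean of the 3 WT libraries (blue lower, red higher). An asterisk marks the 17 genes called at an adjusted p under 0.05. BimS replicate 2 is the bluest column in most rows, and Oasl1 is the called gene that rose.

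Cell division genes fell in part. Of 50 tested, 12 fell, 1 rose and 37 were not called, with a median of -0.24, where 5.89% of all genes fell. Hells, a chromatin remodeler of replicating cells, was at 18.9, 20.7 and 24 CPM with WT medium and 12.1, 14.1 and 16.7 CPM with BimS debris (log2 fold change -0.57, SE 0.106, adjusted p = 0.000259), and the cyclin gene Ccnd1 at 26.8, 30.1 and 26.6 CPM with WT medium and 18, 20.8 and 19.2 CPM with BimS debris (log2 fold change -0.52, SE 0.0805, adjusted p = 6.41e-06). Cenpe, a mitotic motor, fell by 0.55 (adjusted p = 0.0358), and Pcna, the replication clamp, rose by 0.25 (adjusted p = 0.0188) with overlapping groups. No gene of the list rose without WT replicate 1, WT replicate 2, BimS replicate 2 or BimS replicate 3. Mki67, the usual mark of cycling cells, was at 103, 109.8 and 122 CPM with WT medium and 82, 98 and 104 CPM with BimS debris and did not pass (adjusted p = 0.0514, or 2.15e-05 with the replicate block). The number that fell was 3 without WT replicate 3 and 5 without BimS replicate 1. With the block it was 20.

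The other genes of the 15 largest falls changed less than the 15 leading rises. Enpp4 (ENSMUSG00000023961, chromosome 17 from 44407146 to 44416863, reverse strand), an ectoenzyme that cleaves extracellular dinucleotides, was at 29.2, 30.3 and 29.3 CPM with WT medium and 13.3, 14.8 and 12.7 CPM with BimS debris (log2 fold change -1.12, SE 0.0862, adjusted p = 1.47e-12). Sla, an adaptor that dampens receptor signals, was at 299, 349 and 316 CPM with WT medium and 153, 179 and 155 CPM with BimS debris (log2 fold change -0.99, SE 0.0841, adjusted p = 3.59e-06). Gcsam, of the cDC1 list, fell from 111 ± 6.89 to 56 ± 4.29 CPM (-0.99), and Snx22, also of that list, from 27.1 ± 4.7 to 13.2 ± 0.868 CPM (-1.04). Tspan33, a tetraspanin, fell from 43.8 ± 1.33 to 22.4 ± 1.3 CPM, Grap2, an adaptor, from 25.4 ± 3.9 to 12.9 ± 2.42 CPM, and Pou2f2, the transcription factor OCT2, from 20.4 ± 3.23 to 11 ± 1.13 CPM. Their log2 fold changes were -0.97, -0.97 and -0.89. Fgfbp3 (-0.95) and 9930111J21Rik2 (-1.0) were also among the 15.

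Whether these changes belonged to apoptotic debris was asked by testing RIPK3 debris against BimS debris in the same fit. Both debris types are compared with the same WT libraries, so their values are given side by side. Over all genes 4.15% differed between RIPK3 and BimS, and 393 of the 2576 genes changed with BimS did. The same BimS libraries chose the 2576 genes and enter this test, so the 393 are in part set by that choice. Hmox1 stood at 6548, 6626 and 7024 CPM with RIPK3, higher than with BimS by 0.38 (adjusted p = 1.02e-05). Of the NRF2 list 4 of 29 were higher and 1 lower with RIPK3 than with BimS, and Nqo1, at 46.8 ± 5.5 CPM (SD, n = 3) with RIPK3, differed by 0.1 (adjusted p = 0.708). Of the interferon list 14 of 47 were lower with RIPK3 and none higher, where 2.21% of all genes were lower and 1.94% higher. The split over all genes moved with the setting. With limma on log2(count + 1), which was not scaled for library size, 58 genes were higher and 345 lower. That is 14.4% of the called genes higher in place of 46.7%. With limma on log2 CPM, which was scaled, 46.7% were higher. The cause of the shift was not tested. Slfn8 was at 13, 12.3 and 11.7 CPM with RIPK3, against 22.4, 20.2 and 21.3 CPM with BimS and 31.3, 29.1 and 32.2 CPM with WT, a difference between the debris types of -0.79 (adjusted p = 1.42e-07). Levels of the 3 media did not overlap in that gene.

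Some genes stood higher with apoptotic than with necroptotic debris. Sema4d was at 9.29, 7.7 and 7.97 CPM with RIPK3, below the BimS libraries at 23.1, 18.1 and 19.4 CPM and the WT libraries at 12.1, 12 and 12.8 CPM, a difference of -1.28 (adjusted p = 3.45e-10) from BimS. Plxna1 differed by -0.67 (adjusted p = 4.35e-06), Gas2l3 by -0.4 (adjusted p = 0.000419) and Tgfbi by -0.3 (adjusted p = 0.000163). Of the cholesterol list 4 of 29 were lower with RIPK3 than with BimS and none higher, where 2.21% of all genes were lower and 1.94% higher. Enpp4, which fell with BimS, was lower still with RIPK3, a difference of -0.56 (adjusted p = 0.000411). The stress lists went the other way, beside the same shares. Of 25 genes of the integrated stress response 11 were higher and 1 lower with RIPK3 than with BimS. Of 20 heat shock genes 8 were higher and none lower. Trib3 differed by 0.61 (adjusted p = 1.06e-06) and Hspa8 by 0.39 (adjusted p = 4.27e-06). From other lists, Atf3 differed by 0.59 (adjusted p = 3.3e-09) and Il6 by 0.51 (adjusted p = 4.27e-06). The number of genes that differed was 489 without BimS replicate 3 and 1730 with the replicate block, in place of 810.

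The response of cDC2s, sorted from the same cultures, was set against that of cDC1s by an interaction term, fitted over all 17 samples. Of 18628 genes tested in both fits, 166 (0.891%) differed in their response, and 118 of the genes changed in cDC1s did. Of the 15 leading rises, 6 differed and were larger in cDC1s. The cDC1 values chose these genes and also enter the interaction, so larger responses in cDC1s are favored by the choice. Ankrd55 rose in cDC1s and went from 1.77 ± 0.168 to 2.56 ± 0.6 CPM in cDC2s, a difference between the responses of 1.86 (adjusted p = 3.55e-05). Clec4n went from 757 ± 101 to 1317 ± 122 CPM in cDC2s, with a difference of 1.22 (adjusted p = 6.9e-07). For Osgin1, Nqo1, Lrp8 and Trem6l the differences were 1.34 (adjusted p = 3.55e-05), 1.18 (adjusted p = 0.0291), 1.11 (adjusted p = 1.24e-06) and 1.01 (adjusted p = 0.000426). The difference was not called for Hmox1, -0.29 (adjusted p = 0.729), Cxcl2, -0.38 (adjusted p = 0.328), Cxcl3, -0.38 (adjusted p = 0.341), or Spic, 0.72 (adjusted p = 0.464). A difference that did not pass is not a sign of equal responses.

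Within the lists, 9 of 29 NRF2 genes and 8 of 34 early response factors differed in their response from cDC2s. The members named next were chosen by their cDC1 values as well. Srxn1 had a log2 fold change of 1.68 in cDC1s and 0.77 in cDC2s, a difference of 0.91 (adjusted p = 4.99e-06). Irf8 fell in cDC1s and had 0.03 in cDC2s, with a difference of -0.78 (adjusted p = 0.0254). Soat1 rose in cDC1s and had 0.11 in cDC2s, with a difference of 0.8 (adjusted p = 3.55e-05). Pfkfb3, a regulator of glycolysis, fell in cDC1s and rose in cDC2s by 0.64, a difference of -0.93 (adjusted p = 2.02e-06). Of the 15 leading falls, none differed between the cell types at this threshold. Gcsam, Fgfbp3 and Snx22 were near the floor in cDC2s with WT medium, at 0.434, 0.267 and 0.545 CPM. For such genes the test could hardly pass, so no shared response follows from it. The number of genes with a difference was 93 without WT replicate 1, 104 without BimS replicate 1, 100 without BimS replicate 3 and 443 with the replicate block.

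**Figure D5:**
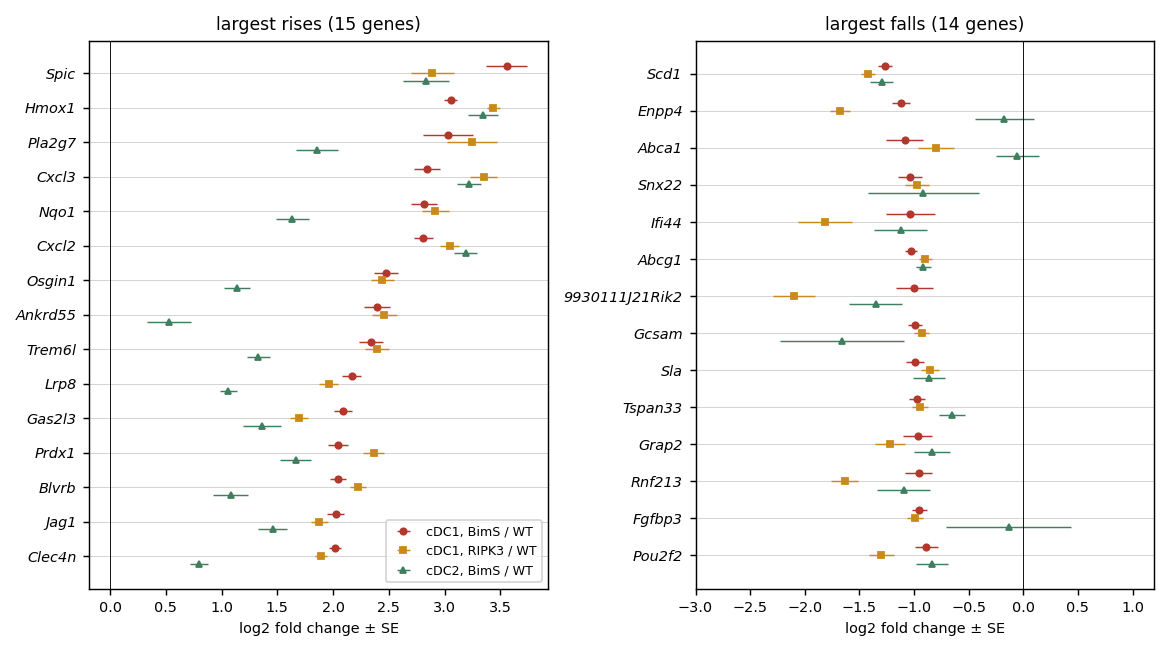
Log2 fold changes with standard errors (x axis) are drawn for the 15 largest rises and 14 of the 15 largest falls of the cDC1 comparison: BimS against WT in cDC1s (red circles), RIPK3 against WT in cDC1s (orange squares, sharing the WT libraries) and BimS against WT in cDC2s (green triangles). The red values chose the genes. In cDC2s Ankrd55 and Clec4n had smaller responses, and Hmox1, Cxcl2 and Cxcl3 had responses of 3.35, 3.19 and 3.22.

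Each list of markers of other cells was under 100 CPM in sum, apart from that of cDC2s. The 21 TC-1-like epithelial and mesenchymal markers tested summed to 14.4 to 15.1 CPM with WT and 15.7 to 19.4 CPM with BimS, 16 of them were under 1 CPM in every library, and none was called. Thbs1, at 0.82 (adjusted p = 0.0665), passed with DESeq2 (adjusted p = 0.0156), with the replicate block (adjusted p = 0.000238) and without BimS replicate 1 (adjusted p = 6.31e-05), and 1 marker of this list was called by edgeR without the filter and by limma on log2(count + 1). Macrophage markers summed to 67.3 to 70.8 CPM with WT and 39.8 to 49.04 CPM with BimS. Most of that sum was from Timd4, named above as a receptor for phosphatidylserine, and 7 of these markers were under 1 CPM in every library. Of 14 tested, 3 fell, Timd4, Fcgr1 (-1.03, adjusted p = 6.8e-05) and C1qc, which is under 1.2 CPM in every library and lost its call without WT replicate 3, BimS replicate 2 or BimS replicate 3. None rose, and Adgre1, which encodes F4/80, was at 1.35, 0.919 and 1.08 CPM with WT medium and 1.02, 0.328 and 0.569 CPM with BimS debris. Leaving out WT replicate 1 or 2 gave 5 or 6 falls. The T and NK cell markers and all B cell markers but Ighm were under 2 CPM in every library, and the neutrophil genes S100a8 and S100a9 did not pass the filter. The B cell list summed to 20.93 to 26.86 CPM with WT and 14.41 to 20.7 CPM with BimS, and plasmacytoid DC markers to 79.6 to 88.5 CPM and 69.5 to 75.8 CPM. Hbb-bt, an erythroid gene, was at 0.2, 0.255 and 0.361 CPM with WT medium and 1.38, 0.61 and 1.24 CPM with BimS debris (1.94, adjusted p = 0.00573), while Hbb-bs was not called. The 12 cDC2 markers tested summed to 117 to 139.5 CPM with WT and 91.2 to 117.4 CPM with BimS, most of it from Clec12a, which was not called (-0.36, adjusted p = 0.222, or 4.44e-10 with the block). Of these markers 7 were under 1 CPM in every library, Esam rose from 0.255 ± 0.105 to 1.08 ± 0.0951 CPM and none fell. Single markers of lymphoid and plasmacytoid cells were called as well: Cd5 was higher by 1.26 (adjusted p = 0.0336), Jchain changed by -2.15 (adjusted p = 0.00531) and Tcf4 by -0.23 (adjusted p = 0.0485). The part of these cells in the results was not tested.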

How the data were processed

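Bulk RNA-seq was available for 17 samples, and the 6 cDC1 samples with WT medium or BimS debris are described. The authors deposited whole counts of reads per gene, from reads aligned with STAR 2.7.10a to GRCm39 and quantified with gensum, according to the submitters' processing notes and the methods, and a table of log2 values of scaled counts, which was used only as an alternative. The libraries carried no molecular identifiers, so the precision of a count covers counting error only.

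Genes with a nonzero count in at least 50% of the 9 cDC1 samples were kept. Counts were normalized with TMM and fitted with the quasi-likelihood test of edgeR 4.0.16 (R 4.3.3) over the 9 cDC1 samples in 3 groups. A Benjamini-Hochberg adjustment covered every gene in a fit, with 0.05 as the threshold. The response of cDC2s was compared by an interaction in a fit of all 17 samples. The coefficient of biological variation was 5.55% in cDC1s. The script was tested on simulated data. limma 3.58.1 and DESeq2 1.42.0 served as alternatives.

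The authors' own test was limma, by the methods with a log2(count + 1) transformation and on raw counts. One of the alternatives was limma on log2(count + 1), not scaled for library size. The labels do not say what a replicate number marks, so p-values measure the spread between these samples. Deviations of samples with the same number correlated (0.345, 0.423 and 0.318 for the 3 pairs of WT and BimS), so a fit with the number as a block is given beside the genes printed as not called that it would add. Named genes were the 15 largest rises and falls among called genes with a mean of at least 3 (log2 CPM) and no overlap, the 5 called members of each list with the smallest p, up to 3 uncalled members of highest level, and the genes Bcl2l11 and Ripk3 and the surface markers followed in the study. Other list members are named after their values were seen. The members and lists were chosen with earlier results of these data known. Genes with near-identical copies may share reads. Gene positions are of GRCm39 and promoters of GRCm38.p6, and the 2 builds were not mixed. A few genes are not reported here, and they were kept in the fits and the counts.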

Additional observations from a re-analysis of the deposited data

Results flagged for a closer look

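Of 242 named genes, 29 had a response to BimS debris that differed between cDC1s and cDC2s by the interaction test of edgeR, of which 22 had the more positive response in cDC1s and 7 the more negative. Over all 18628 genes 166 (0.891%) differed. The named genes were chosen by their BimS and WT values in cDC1s, which favors larger responses in cDC1s, so the 29 and their split are in part set by that choice. The 12 with a difference of 0.9 or more on the log2 scale are given here, and the other 17 had differences of 0.39 to 0.87 in size. Groups of 3 samples were too small for a check of single outlying samples.

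The pattern receptor gene Clec4n had a difference of 1.22 (adjusted p = 6.9e-07) and the lipoprotein receptor gene Lrp8 one of 1.11 (adjusted p = 1.24e-06). For the oxidative stress genes Srxn1, Osgin1 and Nqo1 the differences were 0.91 (adjusted p = 4.99e-06), 1.34 (adjusted p = 3.55e-05) and 1.18 (adjusted p = 0.0291). Ankrd55 and Trem6l differed by 1.86 (adjusted p = 3.55e-05) and 1.01 (adjusted p = 0.000426). The early response factors Egr2 and Fosl1 differed by 1.34 (adjusted p = 0.000495) and 1.47 (adjusted p = 0.00645), the growth factor gene Hbegf by 1.48 (adjusted p = 0.0132) and the semaphorin receptor gene Plxna1 by 0.91 (adjusted p = 0.000826). Pfkfb3 was the member of the 12 with a more negative response in cDC1s, at -0.93 (adjusted p = 2.02e-06).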

How the results depend on the processing

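For BimS against WT, 2572 genes were called with size factors in place of TMM, 2333 with DESeq2, 2665 with filterByExpr, 2760 without a filter, 2424 with limma on log2 CPM, 3220 from the 6 samples alone and 1773 from all 17, in place of 2576. limma on log2(count + 1), without scaling for library size, called 1510. The deposited log2 values gave 2842, of which 1036 were higher and 1806 lower (36.5% higher against 55.4%). The replicate block gave 3486, and the 6 samples with the block, an alternative chosen after seeing the data, 4185. Leaving out 1 library gave 1987 to 2219.

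For RIPK3 against BimS, limma on log2(count + 1) called 403 genes, 58 higher and 345 lower (14.4% higher against 46.7%), the block 1730, and leaving out 1 library 489 to 1027, in place of 810. For the difference from cDC2s, DESeq2 called 261, no filter 315, limma on log2(count + 1) 67 (83.6% more positive in cDC1s against 64.5%), the block 443 and leaving out 1 library 93 to 234, in place of 166. The cause of these shifts was not tested. No named gene changed direction where it was called, and the block lost no named call and added 27. Genes under about 1 CPM rest on few reads.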

Other observations

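Gene families named by symbol were described after their values were seen, and some of their members are also on the lists, such as Abcg1, Abca1 and Abcc1 among the ABC transporters. Over all genes 7.31% were higher and 5.89% lower. Of 6 TREM and TREM-like receptors tested, 5 rose and none fell, with a median log2 fold change of 1.69. Treml4, which encodes a receptor that binds dead cells, was at 160.4, 173 and 169 CPM with WT medium and 445, 470.3 and 462 CPM with BimS debris (log2 fold change 1.46, SE 0.0519, adjusted p = 5.39e-22), and Trem4 at 16.2, 17.7 and 14.9 CPM with WT medium and 60.1, 63.9 and 61.5 CPM with BimS debris. In both the groups did not overlap. Of 23 C-type lectins (Clec), 6 rose and 1 fell. Clec4d was at 21, 24.4 and 20.1 CPM with WT medium and 58.2, 52.7 and 55.6 CPM with BimS debris (log2 fold change 1.35, SE 0.0711, adjusted p = 4.93e-17) and Clec4e, which encodes Mincle, rose by 1.14 (adjusted p = 0.0222). Of 9 Lilr and Pir receptors, 2 rose and none fell, with a median of 0.06. The 2, the leukocyte immunoglobulin-like receptor genes Lilrb4a and Lilrb4b, rose by 1.39 and 1.24, and since they are near-identical copies their reads may be split between them. Killer cell lectin-like receptors went the other way, with 5 of 17 lower, none higher and a median of -0.31. Klrk1, which encodes NKG2D, was at 229, 229 and 247 CPM with WT medium and 144, 159 and 156 CPM with BimS debris (log2 fold change -0.62, SE 0.0506, adjusted p = 6.55e-12), and Klrb1b at 54.4, 50.6 and 53.1 CPM with WT medium and 29.6, 30.3 and 25.6 CPM with BimS debris (log2 fold change -0.89, SE 0.074, adjusted p = 1e-11).

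Enzymes and receptors of prostaglandins had 7 rises and no fall of 20. Hpgds, a prostaglandin D synthase, was at 0.8, 0.97 and 0.766 CPM with WT medium and 3.42, 3.19 and 3.62 CPM with BimS debris (log2 fold change 2.01, SE 0.232, adjusted p = 2.38e-08), Ptgr1, which inactivates prostaglandins, rose by 2.92 (adjusted p = 2.38e-08) and Ptger2, a receptor for prostaglandin E2, was at 10.3, 12.7 and 13.6 CPM with WT medium and 20.4, 26 and 27.3 CPM with BimS debris (log2 fold change 1.01, SE 0.113, adjusted p = 7.29e-07). All 3 metallothioneins tested, which bind metals, rose, with Mt1 at 15.6, 15.1 and 13.2 CPM with WT medium and 29.1, 26.6 and 30.1 CPM with BimS debris (log2 fold change 0.97, SE 0.0846, adjusted p = 3.1e-11). Of 39 ABC transporters 9 rose and 3 fell, and of 248 solute carriers 28 rose and 11 fell. Of 16 tubulins 4 rose and 2 fell, with Tubb5 at 226, 211 and 249.97 CPM with WT medium and 144, 125 and 144 CPM with BimS debris (log2 fold change -0.73, SE 0.115, adjusted p = 0.00391).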
